A study of Mus musculus with 21 samples.

Results

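The genes examined here were 10 members of the cytosolic heat shock and chaperone system, chosen by gene symbol from the 41128 symbols of a table of RNA sequencing of mouse striatal tissue, the part of the forebrain that holds mostly spiny projection neurons. They were Hspa1a, Hspa1b, Hspa8, Hsph1, Hsp90aa1, Ahsa1, Dnajb1, Dnajb2, Hspb1 and Bag3, and each was found in 1 row of the table. All mice were wild type by the labels, and tissue was taken 3 weeks after injection of an adeno-associated virus (AAV, a carrier that does not replicate) into the striatum. The groups of set A were labelled WT, Cas9 and GCas9 (3 libraries in each), and those of set B GFP, Cas9 and GCas9 (4 in each). Cas9 cuts DNA at a site given by a guide RNA, and GFP, a fluorescent protein, is a common control cargo. The labels give GCas9 as a name only; the study is known for joining Cas9 to part of Geminin so that it is degraded sooner. They leave unstated whether a virus was given to WT mice, which promoter drove the cargo and whether guide RNA was present, and they give the age as 3 weeks in the sample field and 3 months in the growth protocol. They also do not tie a library to an animal, so that p values measure the spread between these libraries, which may be technical.

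Chaperones bind unfolded or newly made proteins and keep them from clumping. When damaged proteins build up, heat shock factor 1 (Hsf1) is released, binds repeated GAA and TTC units in front of its target genes and drives the inducible chaperones, with the HSP70 genes Hspa1a and Hspa1b among the strongest targets. HSP70 works in cycles of ATP that J proteins start and nucleotide exchange factors end, and clients can pass on to HSP90. In the unstressed brain the constitutive HSP70, Hspa8, is among the abundant neuronal transcripts and the inducible pair is low.

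The 250 bases before the start of transcription are shown for 3 members with a match to such units and for 2 members described below that have none. The sequences are from RefSeq on GRCm38.p6, which held 8 of the 10 members (not Hspa8 or Hsp90aa1). They are written 5′ to 3′ on the strand of the gene, and capitals mark a pair of facing units, GAANNTTC or TTCNNGAA. Hspa1a lies at chr17:34972157-34972406 and Hspb1 at chr5:135887669-135887918, with Hspa1b at chr17:34959239-34959488, on the minus, plus and minus strand. Dnajb2 is given for chr1:75236173-75236405 and Bag3 for chr7:128523333-128523582, both on the plus strand. The Dnajb2 stretch has 233 bases because the rest lies within an annotated transcript.
Hspa1a: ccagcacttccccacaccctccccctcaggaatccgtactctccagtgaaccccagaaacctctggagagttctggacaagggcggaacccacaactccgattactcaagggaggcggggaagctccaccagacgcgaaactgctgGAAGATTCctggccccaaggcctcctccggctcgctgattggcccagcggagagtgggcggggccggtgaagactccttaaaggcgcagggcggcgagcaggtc
Hspa1b: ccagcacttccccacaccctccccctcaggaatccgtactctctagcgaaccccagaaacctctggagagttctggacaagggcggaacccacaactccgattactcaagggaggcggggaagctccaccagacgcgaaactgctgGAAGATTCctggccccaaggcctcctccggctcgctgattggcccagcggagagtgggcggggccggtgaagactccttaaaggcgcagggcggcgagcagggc
Hspb1: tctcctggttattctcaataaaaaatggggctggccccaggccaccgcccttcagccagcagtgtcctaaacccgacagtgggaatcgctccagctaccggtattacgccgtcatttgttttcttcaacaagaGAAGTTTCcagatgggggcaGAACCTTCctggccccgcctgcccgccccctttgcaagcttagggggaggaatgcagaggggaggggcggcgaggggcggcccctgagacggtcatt
Dnajb2: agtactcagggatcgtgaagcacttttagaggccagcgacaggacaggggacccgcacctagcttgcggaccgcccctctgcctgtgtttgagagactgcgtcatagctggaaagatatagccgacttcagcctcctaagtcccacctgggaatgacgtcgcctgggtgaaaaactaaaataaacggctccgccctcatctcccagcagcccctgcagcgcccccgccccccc
Bag3: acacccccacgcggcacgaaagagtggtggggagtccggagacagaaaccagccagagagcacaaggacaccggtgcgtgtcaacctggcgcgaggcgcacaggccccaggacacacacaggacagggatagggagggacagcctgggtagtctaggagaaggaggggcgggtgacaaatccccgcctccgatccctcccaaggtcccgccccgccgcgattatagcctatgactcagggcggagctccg

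The paired unit was found in 4 of the 8 matched members, on either strand, and in 14.5% of the 27025 genes with a window of this length. Hspa1a and Hspa1b carry it at the same place, bases -104 to -97 counted back from the start, and their windows were identical at 247 of 250 bases. Hspb1 carries 2, at -117 to -110 and at -97 to -90. Hsph1 carries 1, within annotated transcript and not printed. The longer 3-unit form, GAANNTTC followed by NNGAA or TTCNNGAA followed by NNTTC, which contains the paired unit, was in none of the 8 members and in 0.514% of those genes. The letters TATAAA, sought on the strand of the gene only, were in none of the 8 matched members and in 8.94% of genes. A match describes letters in this window only.

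Per length, Hspa8, Hsp90aa1 and Hsph1 were the most abundant members and the inducible HSP70 pair the least. Levels here are the normalized read counts of the table divided by the exon length of the gene in kb, over all libraries of a set, with the lowest and highest library in brackets. In set A, Hspa8 had a mean of 3643 normalized reads per kb (3247 to 4172), Hsp90aa1 2259 (1958 to 2580) and Hsph1 1031 (850 to 1167). These 3 members, a constitutive HSP70, an HSP90 and an HSP110, did not overlap one another in any of the 9 libraries. Dnajb2 followed with 574 (508 to 696), Ahsa1 with 417 (377 to 447) and Dnajb1 with 290 (280 to 307), again with no overlap between neighbours. Bag3 (92.5, from 76.6 to 124) and Hspb1 (89.6, from 52.3 to 154) could not be ordered, nor could Hspa1a (10.6, from 4.87 to 15.0) and Hspa1b (9.74, from 5.15 to 20.8).

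The order in set B was similar. The authors scaled the sets apart and the libraries of set B were shallower, so the levels of the sets are not compared. Hspa8 had 2081 normalized reads per kb (1700 to 2732), Hsp90aa1 565 (479 to 722), Hsph1 448 (354 to 512) and Dnajb2 225 (205 to 265). Hsp90aa1 and Hsph1 overlapped here. Dnajb1 (175, from 158 to 193) and Ahsa1 (169, from 145 to 191) overlapped, as did Hspb1 (50.3, from 31.5 to 73.4) and Bag3 (30.6, from 20.4 to 40.9). Hspa1a (5.10) and Hspa1b (3.67) were again lowest. All 10 members passed the minimum mean of 10 normalized counts in both sets, Hspa1b in set B only just, with a mean of 10.3.

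**Figure D1:**
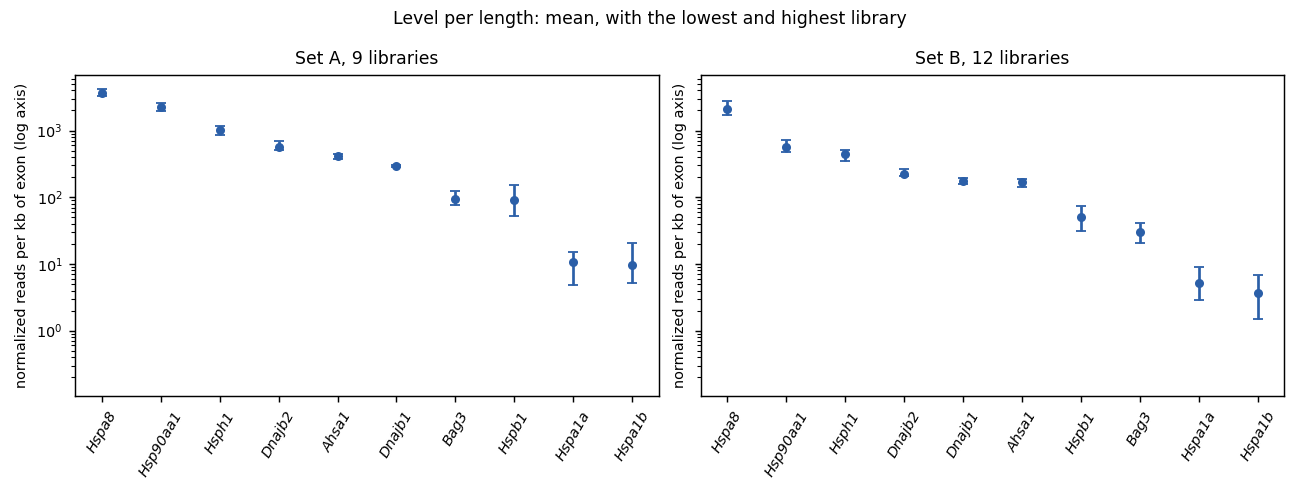
Normalized reads per kb of exon (log axis) of the 10 genes in set A (left, 9 libraries) and set B (right, 12 libraries). Points are means and bars run from the lowest to the highest library. Hspa8 stands at 3643 in set A and 2081 in set B, and Hspa1a and Hspa1b at 3.67 to 10.6.

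Near-identical copies make some of these levels uncertain. Of the 50-base stretches in the longest transcript of Hspa1a, 66.3% also occur in another annotated gene, mostly in Hspa1b, and 62.3% of those of Hspa1b occur in Hspa1a. The coding sequences of this pair were identical at 98.0% of positions. The share was 58.5% in Hsp90aa1, 52.7% in Hspa8 and 51.6% in Hspb1, mostly shared with the gene models Gm12346, Gm15459 and Hsp25-ps1. Of these, Gm15459 was listed at 0 in every library, Hsp25-ps1 reached at most 3.95 normalized counts and Gm12346 ran from 6.95 to 17.7, against at least 1884 for Hsp90aa1. In Hsph1, Dnajb2 and Bag3 the share was 0%, and in Dnajb1 and Ahsa1 0.441% and 1.23%. How reads that fit several genes were counted is not given in the sources used here. Gm20481, a gene on the opposite strand, covers 2225 bases of Hspa1a, and had 0 to 1.97 normalized counts per library of set A and 0 to 12.3 per library of set B, where its median was 4.47 against 13.9 for Hspa1a. Reads of the 2 strands cannot be told apart with this kit.

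Libraries of set A held 20.34 to 28.05 M recovered reads (M, mega) and those of set B 6.09 to 11.07 M. Every Cas9 library of set B (6.09 to 7.69 M) was shallower than every GFP library (7.89 to 9.75 M). The share of reads on the 10 genes was 0.143 to 0.171% for set A, and 0.172 to 0.239% for set B. The spiny neuron markers (Ppp1r1b, Drd1, Drd2, Penk, Tac1 and Adora2a, summed) reached 126205 to 157102 normalized counts in libraries of set A and 54056 to 71587 in those of set B, so the tissue label held in every group. A pair of libraries in set A stood apart. Cas9 replicate 1 had a summed level of 288882 for 5 ependymal and choroid plexus markers, nearly all of it Ttr, against 759 to 11850 in the other 8 libraries of that set, and GCas9 replicate 3 had 16906 for 5 interferon response genes against at most 1635. Cas9 replicate 1 of set B had 10465.5 for the choroid plexus markers against 250 to 673 in the other libraries. Immediate early genes, which move with handling, summed to 23695 to 26820 in WT, 19108 to 23855 in Cas9 and 21141 to 25568 in GCas9 of set A. In set B they summed to 9162 to 13136 with GFP, 8007 to 16852 with Cas9 and 10366 to 13974 with GCas9. The lowest sum of set B was in Cas9 replicate 1. In tissue RNA, fewer cells of a type and less RNA per cell cannot be told apart.

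No member passed the threshold (adjusted p under 0.05, limma, over all genes tested) in any comparison. In Cas9 against WT of set A, 0 of the 10 members were called, as were 1 of 15924 genes (0.00628%). At an unadjusted p under 0.05 there were 2 members, Dnajb2 and Hspb1, and 11.8% of all genes. In 3 members, Dnajb2, Hspb1 and Bag3, every Cas9 library was above every WT library, and 19.6% of all genes had groups that did not overlap in either direction. DESeq2, a count model run on the recovered reads, called 1 member, Dnajb2, and 0.728% of all genes, and edgeR called none. The median log2 fold change of the members was 0.18 against -0.0031 for all genes, with 8 members higher and 2 lower.

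In GCas9 against WT of set A, limma called 0 members and 1 gene (0.00628%; with the replicate number of the titles as a block, 0 members and 2 genes), and 0 members had an unadjusted p under 0.05 where 6.77% of all genes did. No member had groups that did not overlap, against 16.2% of all genes, and neither DESeq2 (218 genes in all) nor edgeR (1 gene) called a member. The median of the members was 0.07, with 6 higher and 4 lower. In GCas9 against Cas9 of set A, limma called 0 members and 0 genes (0%), 1 member (Dnajb2) and 5.45% of genes had an unadjusted p under 0.05, and 2 members (Dnajb2 and Hspb1, lower in GCas9) and 8.84% of genes did not overlap. DESeq2 called Dnajb2 there, among 5 genes in all (0.0314%), and gave no adjusted p for 5 members, while edgeR called none. The median was -0.06, with 2 higher and 8 lower.

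In Cas9 against GFP of set B, limma called 0 members and 0 of 15428 genes (0%). An unadjusted p under 0.05 was seen in 2 members, Ahsa1 and Hspb1, and in 6.24% of genes, and the same 2 members and 4.68% of genes did not overlap. In GCas9 against GFP, limma called 0 members and 0 genes (0%), 2 members (Ahsa1 and Bag3) and 6.48% of genes had an unadjusted p under 0.05, and 3 members (Ahsa1 and Dnajb2 higher, Bag3 lower) and 4.16% of genes did not overlap. DESeq2 called 1 member there, Ahsa1, and 0.266% of genes. In GCas9 against Cas9 of set B, limma called 0 members and 0 genes (0%), 0 members and 3.84% of genes had an unadjusted p under 0.05, and 0 members and 2.02% of genes did not overlap. DESeq2 called no member in Cas9 against GFP, where it gave no adjusted p for 2 members (Hspa1a and Hspa1b). It called none in GCas9 against Cas9, and edgeR called none in any comparison of set B. Over all genes DESeq2 called 10, 41 and 0 in the order given, and edgeR 0. The medians of the members in these 3 comparisons were 0.06, 0.17 and 0.04. Cas9 and GCas9 share the WT or GFP libraries as controls, so their differences from control are not independent of each other.

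**Figure D2:**
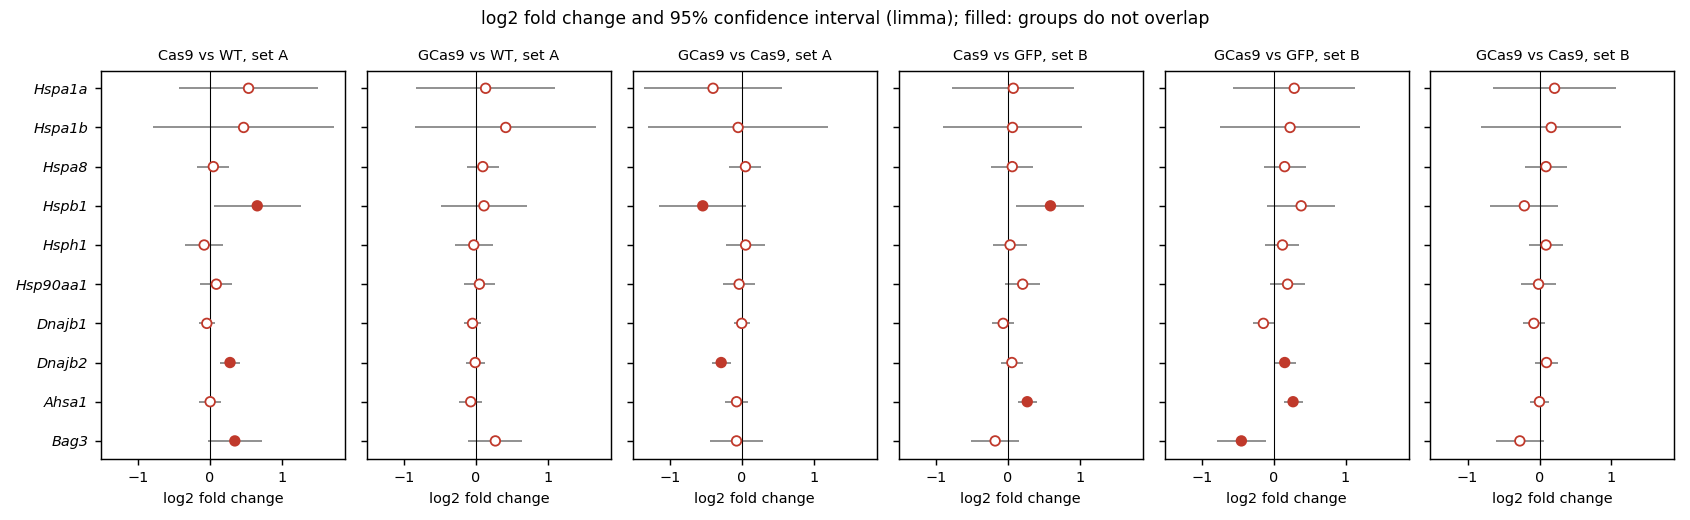
Log2 fold change of the 10 genes in the 6 comparisons within a set, with 95% confidence intervals from limma. Filled points mark genes whose groups do not overlap. Hspb1 stands at 0.66 in Cas9 against WT and 0.59 in Cas9 against GFP, Dnajb2 at 0.28 in Cas9 against WT and -0.29 in GCas9 against Cas9 of set A, and Ahsa1 at 0.27 in both comparisons with GFP.

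The inducible HSP70 genes, which lie side by side on chromosome 17 (Hspa1a at chr17:34969190-34972156 and Hspa1b at chr17:34956436-34959238, GRCm38), were low in every library and not distinguishable between groups. Hspa1a had 14.4, 25.0 and 43.5 normalized counts in the WT libraries of set A, 30.2, 44.4 and 37.4 with Cas9 and 24.0, 43.2 and 20.4 with GCas9. The Cas9 libraries lay within the range of WT except for the highest, 44.4 against 43.5. The log2 fold change of Hspa1a was 0.53 ± 0.42 (SE; 95% interval -0.43 to 1.5) for Cas9 against WT and 0.13 ± 0.42 (-0.83 to 1.10) for GCas9 against WT. In fold, the upper ends of these intervals were 2.82 and 2.14.

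Hspa1b had 14.4, 32.8 and 15.8 normalized counts in WT, 25.0, 45.4 and 18.2 with Cas9 and 15.3, 58.3 and 20.4 with GCas9. Replicate 2 was the highest library in each of the 3 groups, and the spread within a group was wider than the difference between groups. The same replicate number was highest in all 3 groups of set A for 2 of the 10 members, Hspa1b and Hsp90aa1, and for 18.5% of all genes. The log2 fold change of Hspa1b was 0.47 ± 0.55 for Cas9 and 0.41 ± 0.55 for GCas9 against WT. Each group of set A held 69 to 111 reads of either gene, so that counting error adds to these values.

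In set B, Hspa1a had 26.3, 8.55, 13.3 and 9.10 normalized counts with GFP, 15.8, 23.6, 9.44 and 9.82 with Cas9, and 18.4, 11.8, 14.4 and 20.7 with GCas9. Hspa1b had 15.8, 5.99, 8.58 and 7.28 with GFP, 9.03, 4.17, 18.9 and 9.82 with Cas9, and 6.91, 9.69, 11.2 and 15.9 with GCas9. For both genes the highest GFP library, replicate 1, was above at least 3 of the 4 libraries of each other group. The log2 fold changes against GFP were 0.08 ± 0.40 and 0.29 ± 0.40 for Hspa1a and 0.07 ± 0.45 and 0.23 ± 0.45 for Hspa1b, with Cas9 given before GCas9. With the rows of the pair summed, because most of their sequence is shared, the log2 fold changes were 0.48 ± 0.43 and 0.23 ± 0.43 against WT and 0.19 ± 0.31 and 0.29 ± 0.31 against GFP, and none was called.

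Hspa8 (chr9:40800984-40810087), the constitutive HSP70 that also strips clathrin from vesicles, was the most abundant member and nearly level across groups. It had 15151.5 ± 1030.5 normalized counts (SD, n = 3) in WT, 15628 ± 1065 with Cas9 and 16230.2 ± 1932 with GCas9 in set A, and 8477 ± 1049.9 (SD, n = 4) with GFP, 8873 ± 1297 with Cas9 and 9494 ± 1792 with GCas9 in set B. All pairs of groups overlapped. Its log2 fold changes were 0.04 ± 0.10 (-0.18 to 0.27) for Cas9 and 0.09 ± 0.10 (-0.13 to 0.32) for GCas9 against WT, and 0.06 ± 0.14 (-0.23 to 0.36) and 0.15 ± 0.14 (-0.14 to 0.45) against GFP. In fold, the upper ends of these intervals were 1.2, 1.25, 1.28 and 1.36. The highest library of set A was GCas9 replicate 3, and without it the log2 fold change of GCas9 against WT was 0.019. Without Cas9 replicate 1 of each set, that of Cas9 was 0.099 against WT and 0.11 against GFP.

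Hsph1 (chr5:149614287-149636376) encodes an HSP110 that exchanges the nucleotide on HSP70 and helps to take apart clumped proteins. It ranged from 7061 to 8045 normalized counts in WT, 6178 to 8365 with Cas9 and 7030 to 8481 with GCas9 in set A. In set B it ranged from 2879 to 3308 with GFP, 2575 to 3721 with Cas9 and 2845 to 3711 with GCas9. The Cas9 libraries spanned the widest range in each set and held the lowest value of the set, in both cases Cas9 replicate 1, the library with the most choroid plexus markers in its set. Without it the log2 fold change of Cas9 was 0.03 against WT and 0.14 against GFP. The log2 fold changes ran from -0.08 ± 0.12 (Cas9 against WT) to 0.12 ± 0.11 (GCas9 against GFP).

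Hsp90aa1 (chr12:110690605-110702728), the stress-responsive HSP90, had 7696, 9379.7 and 8757 normalized counts in WT, 8381, 10142 and 8891 with Cas9 and 8444, 9678 and 8536 with GCas9. Replicate 2 was highest and replicate 1 lowest in all 3 groups, and the groups overlapped. In set B it had 2031, 2097, 1949 and 1958 with GFP, 1884, 2245, 2839 and 2409 with Cas9, and 2055, 2053, 2486 and 2655 with GCas9. The GFP libraries were close together (SD 69.4, n = 4) and 3 Cas9 libraries lay above all of them, with 1 below. The log2 fold changes against GFP were 0.21 ± 0.11 (-0.04 to 0.45; adjusted p = 0.799, limma) for Cas9 and 0.19 ± 0.11 (-0.05 to 0.44; adjusted p = 0.80, limma) for GCas9. The lowest Cas9 library was replicate 1, and without it the value for Cas9 was 0.31 (adjusted p = 0.49, limma).

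Ahsa1 (chr12:87266479-87273998) encodes the activator of the HSP90 ATPase, and it was higher with both nucleases than with GFP in set B and level in set A. It had 639.8, 652, 633 and 679.7 normalized counts with GFP, 746, 810.4, 789.6 and 797 with Cas9, and 749, 759, 799 and 836 with GCas9. All 8 nuclease libraries were above all 4 GFP libraries, and Cas9 and GCas9 covered the same range. The log2 fold change was 0.27 ± 0.06 (0.14 to 0.40) for each, a fold of 1.21. With limma the unadjusted p was 0.000638 for Cas9 and 0.000659 for GCas9, rank 12 and rank 30 of the genes tested, and neither passed after adjustment (adjusted p = 0.678 and 0.339). DESeq2 gave an adjusted p of 0.099 for Cas9 and 0.0328 for GCas9, and edgeR 0.725 and 0.351. Without Cas9 replicate 1, high in choroid plexus markers, the log2 fold change for Cas9 was 0.30 (adjusted p = 0.441, limma).

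The difference in Ahsa1 between GCas9 and Cas9 of set B was -0.00 ± 0.06, with an interval of -0.13 to 0.13. The summed levels of each cell type marker list overlapped between the GFP libraries and those of either nuclease. Each group held 2562 to 3725 reads of the gene. In set A, Ahsa1 had 1732, 1905 and 1923 normalized counts in WT, 1766, 1955 and 1841 with Cas9 and 1739, 1899.6 and 1649 with GCas9, so that all groups overlapped. The log2 fold changes against WT were 0.00 ± 0.07 (-0.16 to 0.16) for Cas9 and -0.07 ± 0.07 (-0.23 to 0.08) for GCas9. WT and GFP are different controls in separately scaled sets, so these differences were not tested against those in set B.

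Dnajb1 (chr8:83608193-83612653), the inducible J protein that hands clients to HSP70, was the steadiest member of set A. It had 923, 984 and 938 normalized counts in WT, 946, 913 and 896 with Cas9 and 930.1, 900.1 and 921 with GCas9. The coefficient of variation within a group was 1.67 to 3.37%, and the groups overlapped. In set B the values were 618, 584, 589 and 556 with GFP, 585, 525, 538 and 598 with Cas9, and 517, 563, 506 and 538 with GCas9. The GCas9 libraries lay low there, with 3 of 4 below every GFP library, at a log2 fold change of -0.14 ± 0.07 (-0.29 to 0.01; adjusted p = 0.770, limma).

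Dnajb2 (chr1:75236406-75245692), a J protein enriched in neurons that carries ubiquitin-binding motifs and passes clients to the proteasome, was higher with Cas9 than in both other groups of set A. It had 2298, 2352 and 2193 normalized counts in WT, 2956, 2669 and 2673 with Cas9, and 2261, 2374 and 2158 with GCas9. All 3 Cas9 libraries were above all 6 others, and WT and GCas9 covered the same range. The log2 fold change for Cas9 against WT was 0.28 ± 0.06 (0.14 to 0.41), a fold of 1.21, with an unadjusted p of 0.00118 and an adjusted p of 0.405 (limma, rank 35). For GCas9 against Cas9 it was -0.29 ± 0.06 (-0.42 to -0.15), with an unadjusted p of 0.000907 and an adjusted p of 0.89 (limma, rank 3). For GCas9 against WT it was -0.01 ± 0.06 (-0.15 to 0.12).

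DESeq2 put Dnajb2 past the threshold in Cas9 against WT (adjusted p = 0.0111) and in GCas9 against Cas9 (adjusted p = 0.0162), while edgeR gave adjusted p = 0.397 and 0.851. The Cas9 libraries of set A also had 47831 to 59823 summed counts of the neuron markers Rbfox3, Snap25 and Syt1, below all WT libraries (60275 to 61502). GCas9 libraries of set A, at 53802 to 58597, were below all WT libraries as well. The 5 oligodendrocyte markers summed to 209219 to 348339 with Cas9, against 179281 to 215698 in WT and 183588 to 196855 in GCas9. No marker of these lists was at 0 in all libraries of a group. Cas9 replicate 1 was highest both in Dnajb2 and in the oligodendrocyte markers. Their part in the result was not tested. Without that library the log2 fold change of Cas9 against WT was 0.23 and that of GCas9 against Cas9 -0.24, and the remaining pair of Cas9 libraries was still above all WT and GCas9 libraries.

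In set B, Dnajb2 had 942, 937, 877 and 874 normalized counts with GFP, 1012, 912, 871 and 986 with Cas9, and 996, 963, 1125 and 961 with GCas9. There the GCas9 libraries were above all GFP libraries and the Cas9 libraries overlapped both. The log2 fold changes were 0.06 ± 0.07 for Cas9 against GFP, 0.15 ± 0.07 (-0.00 to 0.31; adjusted p = 0.767, limma) for GCas9 against GFP and 0.10 ± 0.07 for GCas9 against Cas9. The difference between GCas9 and Cas9, the 1 contrast that both sets hold, thus had opposite signs in the 2 sets. A fit over all 21 libraries put the difference of the contrasts, set B minus set A, at 0.39 ± 0.10 (0.19 to 0.58), with an unadjusted p of 0.000697, rank 5 of 16094 genes, and an adjusted p of 0.992 (limma). In that test limma called 0 members and 0 genes (0%), and 1 member and 4.34% of genes had an unadjusted p under 0.05. DESeq2 and edgeR called none of the members there, with adjusted p = 0.353 and 0.963 for Dnajb2.

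Hspb1 (chr5:135887919-135889563), a small heat shock protein that holds unfolded proteins without ATP, was higher with Cas9 than with the control in both sets. In set A it had 53.9, 81.9 and 92.0 normalized counts in WT, 159, 106 and 95.1 with Cas9, and 64.2, 92.9 and 86.0 with GCas9. All Cas9 libraries were above all others, the lowest by a small margin. In set B it had 49.5, 32.5, 41.0 and 38.2 with GFP, 56.5, 61.2, 61.4 and 63.9 with Cas9, and 44.5, 62.5, 35.3 and 75.7 with GCas9. The Cas9 libraries were above all GFP libraries, and the GCas9 libraries spread across both groups.

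The log2 fold change of Hspb1 for Cas9 was 0.66 ± 0.27 (0.05 to 1.26; adjusted p = 0.409, limma) against WT, a fold of 1.58, and 0.59 ± 0.22 (0.12 to 1.07; adjusted p = 0.781, limma) against GFP, a fold of 1.51. Neither passed the threshold, by DESeq2 (adjusted p = 0.317 and 0.772) or by edgeR (0.401 and 0.804) either. For GCas9 it was 0.11 ± 0.27 (-0.49 to 0.72) against WT and 0.38 ± 0.22 (-0.09 to 0.86) against GFP. GCas9 against Cas9 of set A gave -0.54 ± 0.27 (-1.15 to 0.06), and the same contrast of set B gave -0.21 ± 0.22 (-0.68 to 0.26), and the difference of these was 0.33 ± 0.35 (-0.41 to 1.07). The groups held 170 to 355 reads of the gene.

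In set A the highest Hspb1 value, 159, was in Cas9 replicate 1, the library of high choroid plexus markers, which also had the highest summed level of 4 endothelial (4639.8) and 4 mural markers (4646), against at most 4053 and 3552 in the other libraries of set A. Their part in the result was not tested. Without this library the log2 fold change against WT was 0.44. In set B, Cas9 replicate 1, again high in choroid plexus markers, had the lowest Hspb1 of its group (56.5), the log2 fold change against GFP without it was 0.63, and the endothelial markers overlapped between GFP (1342 to 1552) and Cas9 (1403 to 1573).

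Bag3 (chr7:128523616-128546981), a co-chaperone that binds HSP70 and small heat shock proteins and directs clients to autophagy, lay on opposite sides of the control in the 2 sets. In set A it had 196, 198 and 215 normalized counts in WT, 279.7, 226 and 271 with Cas9, and 228, 202 and 318 with GCas9. All Cas9 libraries were above WT, and GCas9 overlapped both. The log2 fold changes against WT were 0.34 ± 0.17 (-0.03 to 0.72; adjusted p = 0.439, limma) for Cas9 and 0.27 ± 0.17 (-0.11 to 0.64; adjusted p = 0.760, limma) for GCas9. The highest value was in GCas9 replicate 3, the library of high interferon response genes, which also had the most of 5 astrocyte markers (44993, against at most 32196 elsewhere in the set). Without it the log2 fold change for GCas9 was 0.08. The highest Cas9 library was replicate 1, and without it the value for Cas9 was 0.28. The part of these genes in the result was not tested.

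In set B, Bag3 had 95.8, 78.7, 104.8 and 80.1 normalized counts with GFP, 67.8, 79.2, 83.8 and 86.0 with Cas9, and 52.2, 74.3, 61.0 and 75.7 with GCas9. Every GCas9 library was below every GFP library, and the Cas9 libraries overlapped both. The log2 fold change for GCas9 against GFP was -0.45 ± 0.16 (-0.79 to -0.11), with an unadjusted p of 0.0128 and an adjusted p of 0.728 (limma). For Cas9 against GFP it was -0.18 ± 0.16 (-0.51 to 0.16), and without Cas9 replicate 1, the lowest of its group, -0.10. The sets have different controls, so the change of sign was not tested.

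**Figure D3:**
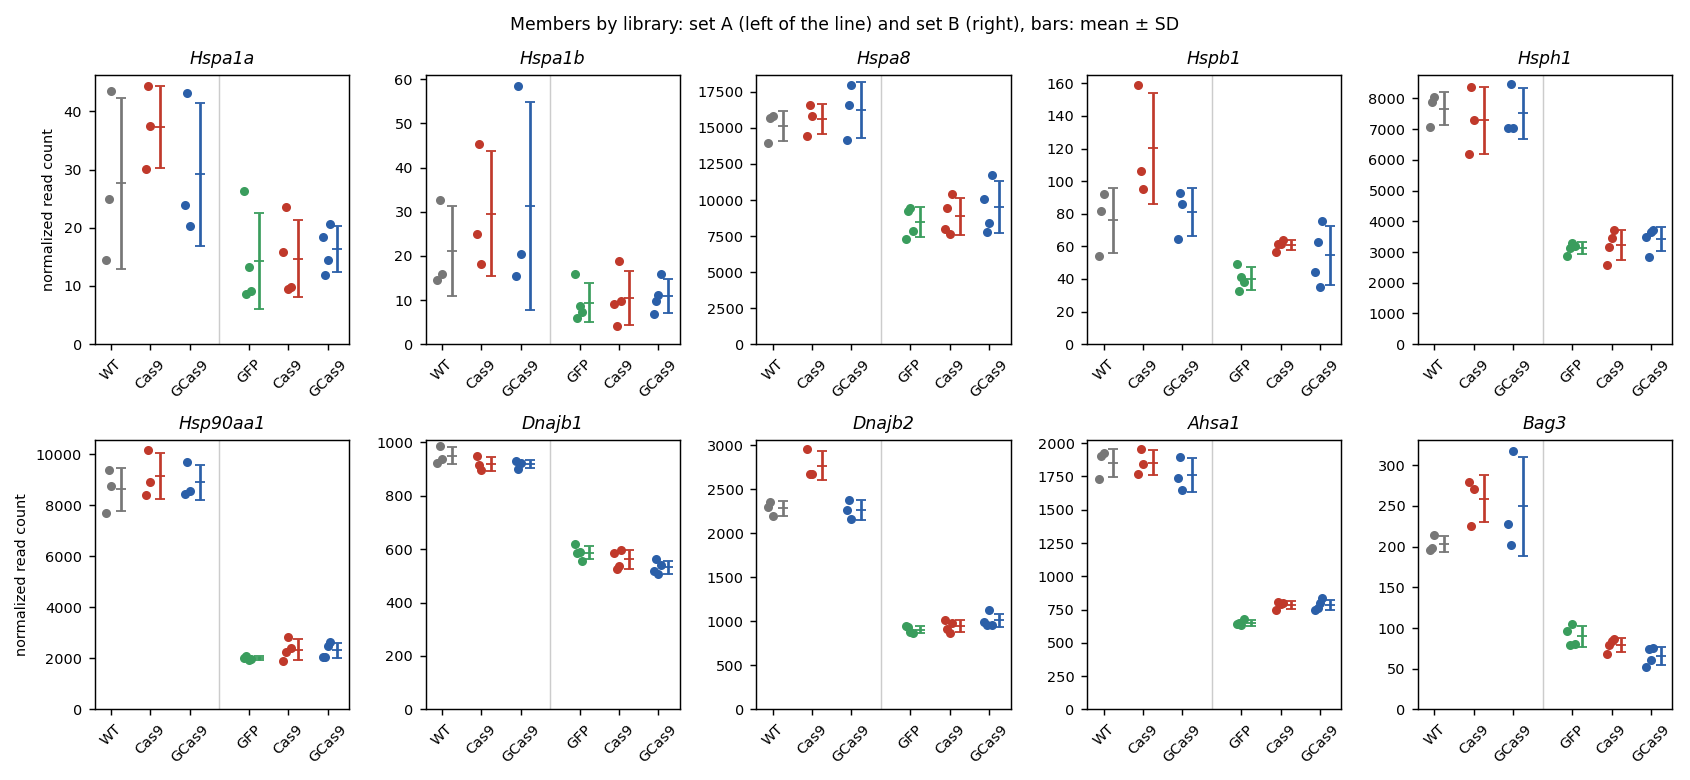
Normalized read count of the 10 genes in every library, with set A left and set B right of the grey line in each panel. Points are libraries, and bars show the mean and SD of a group (3 libraries in set A, 4 in set B). The Cas9 libraries of Dnajb2 in set A (2669 to 2956) lie above all others of the set, and all GFP libraries of Ahsa1 (633 to 679.7) lie below the Cas9 and GCas9 libraries.

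Beyond the 10 members, 66 other genes of the cytosolic chaperone network were examined, of which 63 were tested, and 0 of 63 passed the threshold with limma in any of the comparisons. This list was chosen by function and holds the other heat shock factors, HSP70, HSP90, J proteins, BAG proteins, small heat shock proteins, TRiC and prefoldin. At an unadjusted p under 0.05 there were 7 (11.1%) in Cas9 against WT, 2 (3.17%) in GCas9 against WT and 2 (3.17%) in GCas9 against Cas9 of set A, where the shares of all genes were 11.8%, 6.77% and 5.45%. In set B there were 7 (11.1%) in Cas9 against GFP, 7 (11.1%) in GCas9 against GFP and 1 (1.59%) in GCas9 against Cas9, where the shares of all genes were 6.24%, 6.48% and 3.84%. The median log2 fold changes of the 63 genes were -0.02, 0.01 and 0.02 in set A and 0.05, 0.03 and 0.02 in set B.

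The small heat shock proteins had the highest median of the cytosolic classes in both comparisons with WT. All 4 that were tested were higher with Cas9 than in WT, with a median of 0.59, and all 4 with GCas9, with a median of 0.33, none past the threshold. Cryab, the lens and glial alpha-B crystallin, had 0.60 ± 0.25 with Cas9 against WT and Hspb8, the partner of Bag3, 0.67 ± 0.34. Without Cas9 replicate 1 the median for Cas9 was 0.30, and without GCas9 replicate 3 that for GCas9 was 0.12, with all 4 still higher. The 5 astrocyte markers, summed, were also above all WT libraries in every Cas9 and GCas9 library of set A. Their summed level was 17843 to 18568 in WT, 23899 to 32196 with Cas9 and 24293 to 44993 with GCas9. The oligodendrocyte markers reached higher with Cas9 but overlapped WT (given with Dnajb2 above). The part of either marker list in the result was not tested. In set B the class had 2 members higher and 2 lower with each nuclease against GFP, with medians of 0.03 and -0.06.

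The 5 genes of the heat shock factor class (Hsf1, Hsf2, Hsf4, Hsbp1 and Hikeshi) were all lower with Cas9 than in WT. Their median was -0.12 and none passed the threshold. Among them were Hsf1 at -0.13 ± 0.06 and its binding protein Hsbp1 at -0.11 ± 0.04. Of the 5, 2 had an unadjusted p under 0.05, where 11.8% of all genes did. The neuron markers were also below all WT libraries in every Cas9 and every GCas9 library of set A, and their part was not tested. Without Cas9 replicate 1 all 5 were still lower, with a median of -0.090. With GCas9 against WT the 5 were lower at a median of -0.058, and without GCas9 replicate 3 there were 4 lower and 1 higher, at -0.033. In set B, 3 of the 5 were higher and 2 lower with Cas9 against GFP, with a median of 0.05, among them Hsf1 at 0.05 and Hsbp1 at 0.15.

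Chaperones of other compartments were examined beside the cytosolic ones. Of 7 genes of the endoplasmic reticulum, 6 were higher with Cas9 than in WT, at a median of 0.35, and 7 were higher with GCas9, at a median of 0.24, none past the threshold. Among them Dnajb11, a J protein that works with the chaperone BiP, had 0.35 ± 0.10 with Cas9 and 0.24 ± 0.10 with GCas9, and Hspa5, which encodes BiP, had 0.42 ± 0.19 and 0.30 ± 0.19. Without Cas9 replicate 1 there were 5 higher with Cas9, at a median of 0.24, and without GCas9 replicate 3 all 7 were higher with GCas9, at 0.16. The T and B cell, activated phagocyte and astrocyte markers, each list summed, were above WT in every nuclease library of set A. The T and B cell markers, which include antibody genes, summed to 87 to 142 normalized counts in WT, 435 to 8821 with Cas9 and 1185 to 21070 with GCas9. Activated phagocyte markers summed to 476 to 567 in WT, 1349 to 2481 with Cas9 and 1296 to 3175 with GCas9. Each of these 3 lists holds 5 genes, and none was at 0 in all libraries of a group. Their part in the result was not tested. In set B the medians of this class against GFP were -0.01 and 0.00. The 6 mitochondrial chaperones had medians between 0.02 and 0.08 in all comparisons with a control. In set B all 6 prefoldin subunits, which bring actin and tubulin chains to the TRiC chaperonin, were higher with Cas9 than with GFP. Their median was 0.17, led by Pfdn5 at 0.29 ± 0.11. None passed the threshold, and the groups overlapped for all 6. With 1 library left out the median ran from 0.12 (without Cas9 replicate 2) to 0.24 (without Cas9 replicate 1). Without GFP replicate 3, or without Cas9 replicate 4, 5 were higher and 1 lower. With GCas9 against GFP, 5 subunits were higher and 1 lower, at a median of 0.10. In set A, 3 were higher and 3 lower with Cas9 against WT, at a median of 0.02. With GCas9 against WT, 5 were higher and 1 lower, at 0.03.

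**Figure D4:**
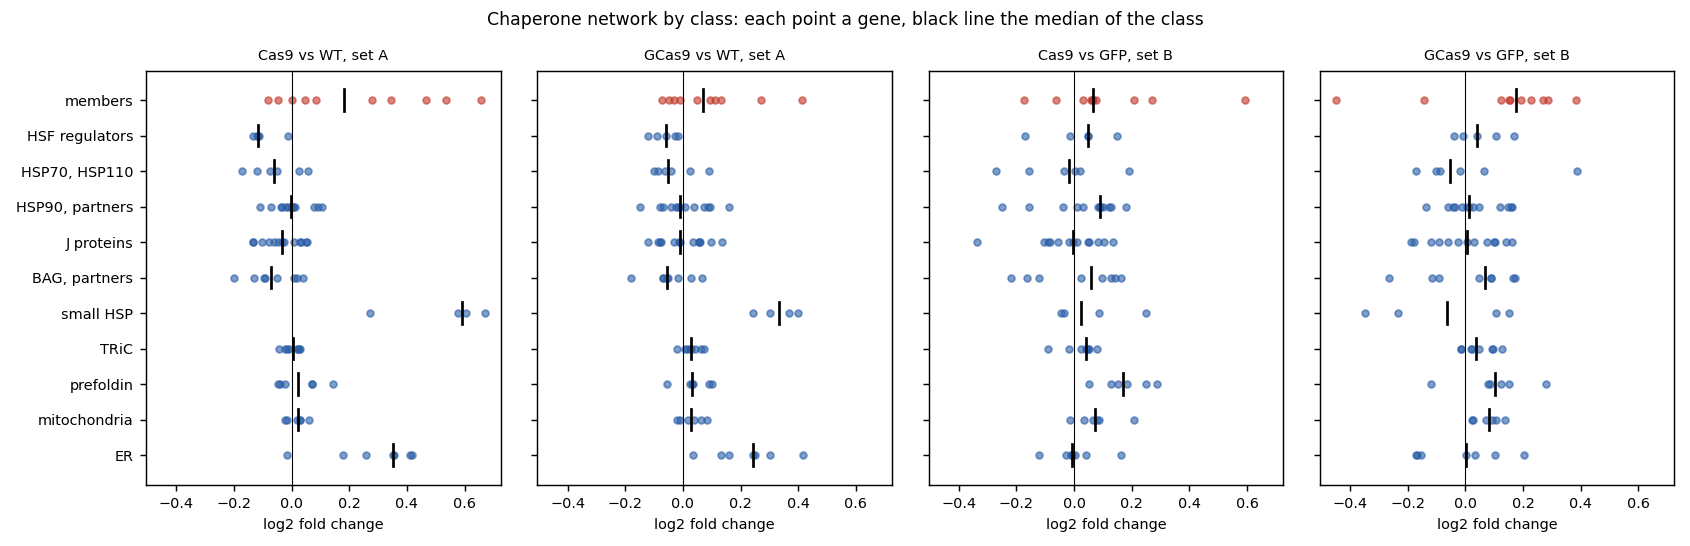
Log2 fold change of the 10 genes (red) and of the other chaperone genes by class (blue) in the 4 comparisons with a control. Each point is a gene and the black line is the median of the class. Small heat shock proteins (median 0.59) and endoplasmic reticulum chaperones (0.35) lie to the right in Cas9 against WT of set A, and no gene shown passed the threshold.

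The other genes of smallest p in each comparison, none of which passed, belonged to several classes. With Cas9 against WT they were, beside Dnajb11, the J protein Dnajb9 of the endoplasmic reticulum (0.18 ± 0.07) and the prefoldin subunit Vbp1 (0.14 ± 0.05). With GCas9 against WT they were Hspbp1 (-0.18 ± 0.05), which releases nucleotide from HSP70, and Ptges3 (0.16 ± 0.06), the HSP90 partner p23. In set B they were Dnajc6 (-0.34 ± 0.09), the auxilin that recruits Hspa8 to clathrin, and Bag6 (-0.22 ± 0.07) with Cas9, and Bag4 (-0.27 ± 0.08), Hspbp1 (0.17 ± 0.07) and Pfdn6 (0.28 ± 0.11) with GCas9. Hspbp1 thus had opposite signs against the WT and GFP controls. Between GCas9 and Cas9 they were Hspa2 (0.21 ± 0.08), an HSP70, Dnajc2 (0.21 ± 0.09) and Vbp1 (-0.11 ± 0.05) in set A, and Dnajc7 (0.15 ± 0.06), Dnajb5 (0.23 ± 0.12) and Ppp5c (-0.12 ± 0.07) in set B. The difference between the sets was led by Bag4 (-0.24 ± 0.12), Fkbp5 (0.29 ± 0.16) and Hsf1 (-0.13 ± 0.08), and 0 of the 63 genes had an unadjusted p under 0.05 there.

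As a description of which genes followed the stress-inducible members, a score was formed as the mean standardized log2 level of Hspa1a, Hspa1b and Dnajb1 in a library, and all 11645 other genes of sufficient level were ranked by the lower of their Pearson r with it over the 9 libraries of set A and the 12 of set B. Among the 5 genes most like it were Col4a3bp (0.61 and 0.66), Hmbox1 (0.63 and 0.57), Ino80b (0.57 and 0.62) and Impa1 (0.57 and 0.59). No chance level was computed for this ranking. Of the genes in the score, Hspa1a had 0.68 and 0.52 with it, Hspa1b 0.79 and 0.67, and Dnajb1 only 0.34 and 0.57. Each of these genes is part of the score, which by itself raises its r. Their values therefore do not show that they moved together. Hspa1a and Hspa1b share most of their sequence and had few reads, so counting error enters the score. Among the other members, Hspb1 reached 0.59 and 0.39. Hsp90aa1 followed the score in set A (0.82) and not in set B (0.00), and Ahsa1 likewise (0.77 and -0.19). Points of these correlations share their library and its depth.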

How the data were processed

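RNA was measured by sequencing in 21 libraries of mouse striatal tissue. Column-purified RNA went through SMARTer cDNA synthesis and Nextera XT, per the labels' protocols. These kits amplify cDNA and do not mark strand, so reads are not independent molecules and counting error is too small an error for a value. Named in the submitters' processing notes, without roles, are the build GRCm38.p3, R 3.3.3, DESeq2, HTSeq, SAMtools and STAR 2.5.2b; the gene annotation and counting parameters are not given in the sources used here. The authors deposited a signal per gene symbol, the read count of a gene divided by 1 size factor per library. Its values were whole multiples of 1 step per library, within 0.01 reads for 100.0% of values, so whole read counts were recovered. The sets follow the title numbers (set A and set B each count from 1) and were scaled separately, so no level of one set was set against the other's.

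The test of groups was limma 3.58.1 (R 4.3.3; two-sided, variance moderated with a trend on the mean) applied to log2(normalized count + 1), on genes with a mean of at least 10, with Benjamini-Hochberg adjustment over all genes tested and a threshold of 0.05. A fold change on this scale understates the change of low genes. Each set was fitted with its 3 groups, and a fit over all libraries tested the difference of GCas9 and Cas9 between the sets. Alternatives were pseudocount 5, no filter, quantile normalization, edgeR 4.0.16 and DESeq2 1.42.0 on the recovered reads, a replicate block, leaving out each library, and, added after seeing the data, leaving out both libraries that stood apart and summing Hspa1a and Hspa1b. The code was tested on simulated data. All 10 members are named in each comparison; of the network list, the 3 genes of smallest p are named where none passed, and for some classes further genes with their class. Of the 5 genes whose levels were most like the stress-inducible members, 1 is not reported here. The members, lists and rules were chosen with earlier results of these data known.

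Deviations of same-numbered libraries from their group means correlated over 0.1 in 6 of 9 pairs of set A (4 of 18 for different numbers) and in 7 of 12 of set B (6 of 36). Every such pair did so in GCas9 against WT (3 of 3) and in GCas9 against Cas9 of set B (4 of 4). The SE, intervals and p values of all comparisons, these included, are from fits that ignore the replicate number. With the replicate block only the numbers of genes and members called are given. The labels state no pairing. Positions and overlaps are from GENCODE on GRCm38, and of the 79 network symbols (66 cytosolic) 1, Hikeshi, was matched by a synonym.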

Additional observations from a re-analysis of the deposited data

How the results depend on the processing

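No member passed the threshold with limma under pseudocount 5, without the filter, with quantile normalization, with the replicate block or without any 1 library, nor with edgeR. DESeq2 on the recovered reads called 1 member in each of Cas9 against WT (Dnajb2), GCas9 against Cas9 of set A (Dnajb2) and GCas9 against GFP (Ahsa1). Genes called moved more: with DESeq2 they were 116 in Cas9 against WT, 218 in GCas9 against WT, 5 in GCas9 against Cas9 of set A, 10 in Cas9 against GFP and 41 in GCas9 against GFP, and in Cas9 against WT they were 0 with edgeR and 0 with pseudocount 5. Without the filter 1 gene was called in the difference between the sets. The cause was not tested.

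Members whose direction reversed were as follows. With DESeq2 and edgeR, Hspa1b had 0.083 and 0.074 in GCas9 against Cas9 of set A, and -0.018 and -0.049 in the difference between the sets, and Ahsa1 had 0.0044 in GCas9 against Cas9 of set B with edgeR. With quantile normalization, GCas9 against WT gave -0.13 for Hspa1a, -0.15 for Hspb1, 0.028 for Hsph1 and 0.0091 for Dnajb2, GCas9 against Cas9 of set A gave 0.000819 for Dnajb1, and the difference between the sets gave -0.026 for Hsph1 and -0.038 for Hsp90aa1.

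With both libraries that stood apart left out, Hsph1 had 0.030 in Cas9 against WT, 0.015 in GCas9 against WT and -0.015 in GCas9 against Cas9, where Hspa1b had 0.062, Hspa8 -0.081 and Dnajb1 0.016, and Dnajb2 had 0.023 in GCas9 against WT. Genes called were then 2 in each comparison with WT and 2 in the difference between the sets.

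Without 1 library, genes called ran from 0 to 7 in Cas9 against WT (7 without Cas9 replicate 2), 0 to 2 in GCas9 against WT, 0 to 1 in GCas9 against Cas9 of set A, 0 to 2 in Cas9 against GFP, 0 to 9 in GCas9 against GFP (9 without Cas9 replicate 3) and 0 to 1 in the difference between the sets. Members that changed sign ran, in Cas9 against WT, from -0.047 to 0.035 (Ahsa1), -0.013 to 0.099 (Hspa8) and -0.19 to 0.030 (Hsph1). In GCas9 against WT they ran from -0.046 to 0.023 (Dnajb2), -0.031 to 0.11 (Hsp90aa1), -0.25 to 0.52 (Hspa1a), -0.14 to 0.79 (Hspa1b), -0.11 to 0.27 (Hspb1) and -0.12 to 0.015 (Hsph1). In GCas9 against Cas9 of set A they ran from -0.26 to 0.063 (Bag3), -0.020 to 0.019 (Dnajb1), -0.10 to 0.039 (Hsp90aa1), -0.61 to 0.32 (Hspa1b), -0.026 to 0.15 (Hspa8) and -0.061 to 0.16 (Hsph1). In Cas9 against GFP they ran from -0.17 to 0.40 (Hspa1a), -0.098 to 0.40 (Hspa1b), -0.019 to 0.13 (Hspa8) and -0.041 to 0.14 (Hsph1). In GCas9 against Cas9 of set B they ran from -0.031 to 0.022 (Ahsa1), -0.11 to 0.084 (Hsp90aa1), -0.17 to 0.34 (Hspa1b), -0.019 to 0.18 (Hspa8) and -0.013 to 0.18 (Hsph1). In the difference between the sets they ran from -0.075 to 0.12 (Hsp90aa1), -0.16 to 0.77 (Hspa1b), -0.069 to 0.13 (Hspa8) and -0.067 to 0.15 (Hsph1). Hspa1b fell under the filter in 3 of the 12 such fits of set B.

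A replicate block, with the number in the title as a term, gave 2 genes in Cas9 against WT, 2 in GCas9 against WT and 5 in GCas9 against GFP, and no member. It changed no other count, among them that of GCas9 against Cas9 of set B, where every same-numbered pair correlated over 0.1. Of the libraries, 4 of 9 in set A and 5 of 12 in set B correlated best with their own number in both other groups. The class medians of small heat shock proteins, endoplasmic reticulum chaperones and heat shock factors against WT kept their sign under each alternative run. So did that of prefoldin in Cas9 against GFP. The medians of other classes and of the whole network list were not rerun. Depth limits Hspa1a and Hspa1b, with 35 to 111 reads a group.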
